A study of Mus musculus with 4 samples.

Results

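The nuclear genes that encode subunits of respiratory complex I were examined across brain regions and between trained and untrained mice. They were taken by symbol: gene symbols beginning with Ndufa, Ndufb, Ndufc, Ndufs or Ndufv, leaving out the assembly factors (Ndufaf) and symbols ending in -ps. This gave 38 of the 32285 genes in the count tables, and 9 other symbols beginning with Nduf were left out. All 38 had UMIs in each of the 4 sections, and they lie on 15 chromosomes. The rule uses symbols and no measured value, and it was set with earlier results of these data known.

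Each mouse gave a single coronal brain section at the level of the dorsal hippocampus, profiled with 10x Genomics Visium, in which barcoded spots on a slide capture polyadenylated RNA from the tissue above them and each captured molecule is counted by its unique molecular identifier (UMI). The 2 trained mice had learned active place avoidance, in which a mouse on a rotating arena learns to stay away from a zone where it is shocked, and the 2 untrained mice walked the same arena with the shock off. All were adult male ArcCreERT2::eYFPflx mice, a line with CreERT2 under the control of Arc, a gene induced by neuronal activity, and a floxed eYFP reporter that is expressed from then on in cells that were Arc-positive while tamoxifen was present. All had received 4-hydroxytamoxifen, and tissue was taken 3 days after the memory retention test. The Arc tag marks active neurons but plays no part in the sums used here, which hold all cell types under a spot. The samples are labelled hippocampus, while the sections also held cortex, thalamus, hypothalamus, striatum and white matter by their marker genes.

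Complex I is the entry point of the respiratory chain: it takes electrons from NADH, passes them to ubiquinone and pumps protons across the inner mitochondrial membrane. Its catalytic core is built from nuclear subunits in the arm that reaches into the matrix and from subunits of the mitochondrial genome in the membrane arm, and a large set of accessory subunits, all nuclear, surrounds both arms. Neurons draw heavily on oxidative phosphorylation, and loss of single subunits causes mitochondrial encephalopathies.

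The members fall into 7 core subunits, 10 accessory subunits of the matrix arm, 19 accessory subunits of the membrane arm, and Ndufa4 and Ndufa4l2. Ndufa4 was named as a complex I subunit and was counted with complex IV in later work, and Ndufa4l2 is its paralog. Their transcripts are short: the longest protein-coding transcript had a median of 952.5 bases (1623 for the core, 992.5 for the matrix arm and 861 for the membrane arm accessory subunits), against 3247 over the genes tested. The assay counts transcripts at their 3′ end, so values below are counts per 1000000 UMIs (CPM) with no scaling for length, and levels are compared within a gene and not between genes. Ndufa13 was the single member that overlapped another gene (Yjefn3) on the same strand.

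The promoter windows of the members are shown first. Whether a motif goes with the level of a member was not tested. RefSeq start sites on GRCm38.p6 gave a window of 300 bases, 250 before and 50 after the start, for 33 of the 38 genes. Those without one in the table used include Ndufa2, Ndufa4l2, Ndufb9 and Ndufs1. The windows were searched on both strands for 3 motifs named for factors that are known for nuclear mitochondrial genes: GCATGCGC (NRF1), CCGGAAG (ETS family, which holds the GABP factor) and AAGATGG (YY1). AAGATGG and CCGGAAG can overlap by the letters AAG, and no member's window held both. Ndufa5 and Ndufa7 had more than 1 window, and each gene is counted once here. AAGATGG was in a window of 7 of the 33 genes (21.2%), against 7.28% of 27025 genes. GCATGCGC was in those of 3 (9.09%, against 3.05%), and CCGGAAG in those of 4 (12.1%, against 9.93%). In all, 14 of the 33 genes (42.4%) had at least 1 of the motifs in a window, against 18.6% of the 27025 genes. The 7 AAGATGG matches began 22 to 38 bases after the start, and each holds an ATG. They are printed as 30 bases in the direction of transcription, with the motif in capitals. Of the 3 motifs searched, this was the one that the most members held.
Ndufa3, chr7:3617384-3617413, plus strand: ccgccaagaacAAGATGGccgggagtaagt
Ndufa9, chr6:126849097-126849126, minus strand: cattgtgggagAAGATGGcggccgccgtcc
Ndufb8, chr19:44555393-44555422, minus strand: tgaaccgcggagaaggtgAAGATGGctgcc
Ndufc1, chr3:51408915-51408944, minus strand: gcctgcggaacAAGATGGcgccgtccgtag
Ndufs4, chr13:114388045-114388074, minus strand: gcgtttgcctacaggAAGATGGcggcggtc
Ndufs6, chr13:73328433-73328462, minus strand: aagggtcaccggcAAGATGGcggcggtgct
Ndufs7, chr10:80249462-80249491, plus strand: aggccgaggccAAGATGGcggcgctggcgg

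The NRF1 letters were found before the start, in the 3 windows below. That of Ndufa11 held them on both strands, joined into a palindrome.
Ndufa6, chr15:82354356-82354385, minus strand: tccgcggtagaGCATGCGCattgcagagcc
Ndufa8, chr2:36049328-36049357, minus strand: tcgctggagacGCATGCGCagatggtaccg
Ndufa11, chr17:56717692-56717721, plus strand: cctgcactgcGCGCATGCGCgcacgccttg

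The ETS letters were in the windows of Ndufb6, Ndufb7, Ndufs3 and Ndufs8. Ndufa10 and Ndufa1, which had the largest differences of the members in the thalamus and in the choroid plexus in the comparisons below, held none of the motifs. Their 250 bases before the start are printed for that reason.
Ndufa10, chr1:92473759-92474008, minus strand: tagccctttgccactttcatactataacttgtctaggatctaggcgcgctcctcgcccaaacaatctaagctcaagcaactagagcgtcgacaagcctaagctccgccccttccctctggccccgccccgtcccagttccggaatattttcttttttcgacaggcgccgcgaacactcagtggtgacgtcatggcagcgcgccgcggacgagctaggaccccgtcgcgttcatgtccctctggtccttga
Ndufa1, chrX:37191239-37191488, minus strand: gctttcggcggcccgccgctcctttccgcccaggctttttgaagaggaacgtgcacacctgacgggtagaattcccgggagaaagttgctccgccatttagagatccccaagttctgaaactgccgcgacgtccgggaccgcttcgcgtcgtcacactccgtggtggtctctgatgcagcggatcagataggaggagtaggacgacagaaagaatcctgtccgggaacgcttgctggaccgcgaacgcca

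The sections held 2865 (trained 1), 3055 (trained 2), 2359 (untrained 1) and 2661 (untrained 2) spots over tissue and 3560294 to 10330015 UMIs. Trained 2 stood apart: it was the deepest section, and the genes of the mitochondrial genome held 6.83% of its UMIs against 11.6% to 12.2% in the other sections. Of 4153 barcodes, 3147 occurred in more than 1 section, since Visium slides carry the same barcode set. Spots were assigned to regions by the marker list that led them, which covered 66.9% to 79.7% of spots, and 13 regions had at least 20 spots in every section. Each group has n = 2 sections, each from another mouse. A spot covers several cells, so that fewer cells of a type and less RNA per cell cannot be told apart.

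The 38 genes held 1.33% of all UMIs in trained 1, 1.57% in trained 2, 1.07% in untrained 1 and 1.24% in untrained 2. The means were 1.45% ± 0.171 (SD, n = 2) in trained and 1.15% ± 0.116 (SD, n = 2) in untrained sections. The groups did not overlap, and the difference was 0.297 percentage points (exact permutation test, two-sided, p = 0.333, which is the smallest p that 2 against 2 sections can give). It was 0.177 points without trained 2 and 0.418 without trained 1. The order of the sections by this share was also their order by total UMIs and by median UMIs per spot (2493, 1936, 1851 and 1048 from the highest share to the lowest), so depth moved with the share, and its part in the difference was not tested. Within a section the share changed little with the depth of a spot in 3 sections: from the shallowest to the deepest of 4 equal groups of spots it went from 1.33% to 1.33% in trained 1, from 1.13% to 1.06% in untrained 1 and from 1.22% to 1.23% in untrained 2. In trained 2 it went from 1.38% to 1.62%. The total in which a share is counted matters as well: with the mitochondrial genes, Bc1, Ttr and Gm42418 out of the total the shares were 1.57%, 1.72%, 1.29% and 1.46%, again without overlap.

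Gene by gene, no member passed the test between trained and untrained sections (edgeR quasi-likelihood on sums over all spots, Benjamini-Hochberg adjusted over 13810 genes). Over all genes 2 passed, or 0.0145%. At an unadjusted p under 0.05 there were 14 members and 1099 genes, and DESeq2 called 0 members. The direction was shared all the same: 35 of 38 members had a log2 fold change above 0, with a median of 0.25, while the median over all genes tested was 0.01 and 51.6% of genes were above 0. In CPM, both trained sections lay above both untrained sections for 35 of 38 members and for 28.8% of the genes tested.

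The median log2 fold change of the core subunits was 0.06, and 5 of 7 were above 0. Ndufs1, the largest core subunit and a carrier of iron-sulphur clusters, had 144 and 154 CPM in the trained and 134 and 139 CPM in the untrained sections. Ndufv1, which binds NADH and FMN, had 192 and 209 CPM against 175 and 190 CPM. The other subunit of the NADH-oxidising tip, Ndufv2, had 332 and 345 CPM against 279 and 320 CPM. In all 3 the trained sections were the higher ones, but the lower trained section lay nearer to the higher untrained one than the 2 trained sections lay to each other, and the log2 fold changes were 0.04 ± 0.11 (SE) for Ndufs1, 0.06 ± 0.11 for Ndufv1 and 0.10 ± 0.12 for Ndufv2.

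Among the core subunits nearer to ubiquinone, Ndufs3 had 203 and 228 CPM in trained and 194 and 196 CPM in untrained sections (log2 fold change 0.07 ± 0.11, SE). Trained sections were higher for this gene, while the next 2 overlapped. Ndufs7 had 245 and 279 CPM in trained and 254 and 254 CPM in untrained sections (-0.04 ± 0.11), and Ndufs8 had 207 and 210 CPM against 198 and 218 CPM (-0.07 ± 0.11). The adjusted p of these core subunits was 0.866 or higher in edgeR.

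Of the accessory subunits, all 10 of the matrix arm were above 0 (median 0.29), and 7 of them had an unadjusted p under 0.05. Of the 19 of the membrane arm, 18 were above 0 (median 0.25), and 6 had such a p. The smallest p belonged to Ndufa5, a matrix arm subunit, with 397 and 530 CPM in trained and 299 and 353 CPM in untrained sections, a log2 fold change of 0.42 ± 0.14 (SE) and an adjusted p of 0.58 in edgeR. Ndufa1, a small X-linked membrane subunit, had 351 and 391 CPM against 240 and 299 CPM (0.38 ± 0.13). Ndufc1 had 506 and 678 CPM against 394 and 453 CPM (0.40 ± 0.14). The groups did not overlap for these genes, and for Ndufa5 and Ndufc1 the 2 trained sections lay further from each other than trained 1 did from the untrained sections.

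Ndufa6, a matrix arm subunit of the LYR family, had 483 and 635 CPM in trained and 370 and 448 CPM in untrained sections (log2 fold change 0.37 ± 0.14, SE). Ndufa4 had 1322 and 1703 CPM against 982 and 1179 CPM (0.40 ± 0.14). Ndufab1, the mitochondrial acyl carrier protein that also serves fatty acid synthesis in mitochondria, had 356 and 354 CPM against 269 and 292 CPM (0.26 ± 0.12). All 3 had higher values in both trained sections, with adjusted p from 0.58 to 0.62. Ndufa4l2 was thinly measured, with 35 and 67 UMIs in trained and 17 and 28 in untrained sections in all, and its log2 fold change of 0.28 ± 0.32 was within its error. At the other end, Ndufa9, an accessory subunit related to dehydrogenases, had 110 and 117 CPM against 106 and 108 CPM (0.01 ± 0.11), and Ndufa10, which resembles nucleoside kinases, had 208 and 218 CPM against 194 and 210 CPM (-0.00205 ± 0.111).

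**Figure D1:**
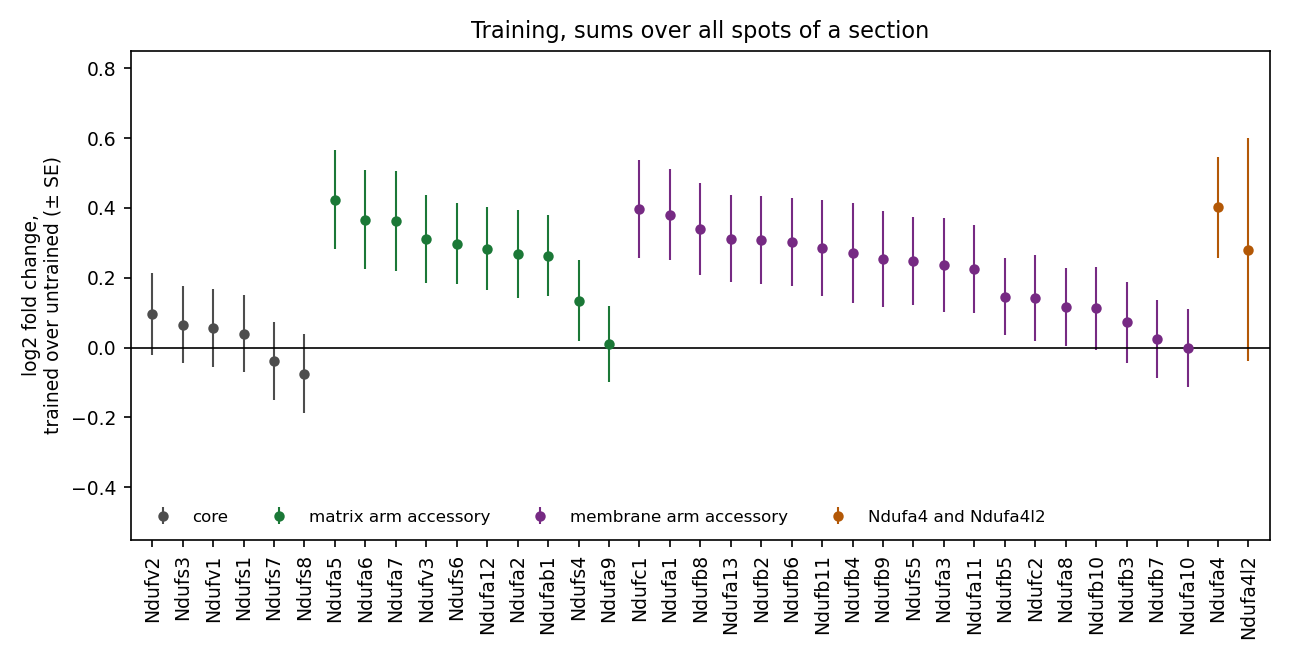
Log2 fold change, trained over untrained, for 37 of the genes from sums over all spots of a section (n = 2 sections a group). Points are edgeR estimates and bars their SE, and colors give the role of the subunit. The core subunits drawn lie between -0.07 and 0.10, and the accessory subunits reach 0.42.

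Which section is left out decided the calls. Without trained 1, 9 members passed, all higher in trained (Ndufa1, Ndufa4, Ndufa5, Ndufa6, Ndufa7, Ndufb8, Ndufb9, Ndufc1 and Ndufv3, with log2 fold changes of 0.39 to 0.56), and the comparison then rests on trained 2 alone, which is assumed to vary as the untrained sections do. None passed without any other section. The median over the members was 0.15 without trained 2 and 0.13 without untrained 1.

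Short transcripts moved in the same direction. Among genes that are not members, those with a longest coding transcript under 1000 bases had a median log2 fold change of 0.12 and 70.3% were above 0, falling through 0.05 and 0.02 to -0.04 for those of 4000 bases and longer. The 21 members under 1000 bases had a median of 0.27 and the 12 members of 1000 to 2000 bases 0.14. The part of transcript length in the shift of the members was not tested. The summed markers of GABA neurons were higher in both trained sections (1451 and 1467 CPM, against 1351 and 1267), those of white matter were 948 and 1941 against 1061 and 1076 CPM, and those of neurons, astrocytes, microglia, vessels and blood overlapped between the groups. Of the 5 GABA neuron markers, 4 had a log2 fold change above 0, and they ran from -0.58 to 0.81. None of the markers in these lists lacked UMIs in a section, and their part was not tested either.

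The other respiratory complexes gave the following counts, with no gene passing the test. Of complex III 9 of 9 genes were above 0 (median 0.28), of complex II 4 of 4 (0.08), of complex IV 15 of 17 (0.24), of ATP synthase 16 of 17 (0.13) and of the complex I assembly factors 11 of 17 (0.10). The 7 complex I genes of the mitochondrial genome went the other way, with 0 of 7 above 0 and a median of -0.55. Their share of UMIs was 2.89% and 1.49% in trained and 3.06% and 2.78% in untrained sections, so trained 2 was the low section, and the groups overlapped.

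Region by region, the 38 genes held the highest share in trained 2 in each of the 13 regions, and both trained sections lay above both untrained sections in 11 of them. White matter gave 1.43% and 1.78% in trained and 1.16% and 1.25% in untrained sections. The hippocampal fields gave 1.43% and 1.54% against 1.29% and 1.27% in CA3, and 1.18% and 1.29% against 1.02% and 1.15% in the dentate gyrus. In CA1 the groups overlapped, with 1.30% and 1.46% against 1.09% and 1.33%, as they did in the medial habenula, with 1.47% and 1.65% against 1.18% and 1.47%. The exact permutation p was 0.333 in the 11 regions without overlap and 0.667 in these 2. With the mitochondrial genes, Bc1, Ttr and Gm42418 out of the total there was again no overlap in 11 regions, but they included the medial habenula and not the choroid plexus, where the shares were 1.71% and 1.502% in trained and 1.45% and 1.56% in untrained sections, and trained 1 was the highest.

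**Figure D2:**
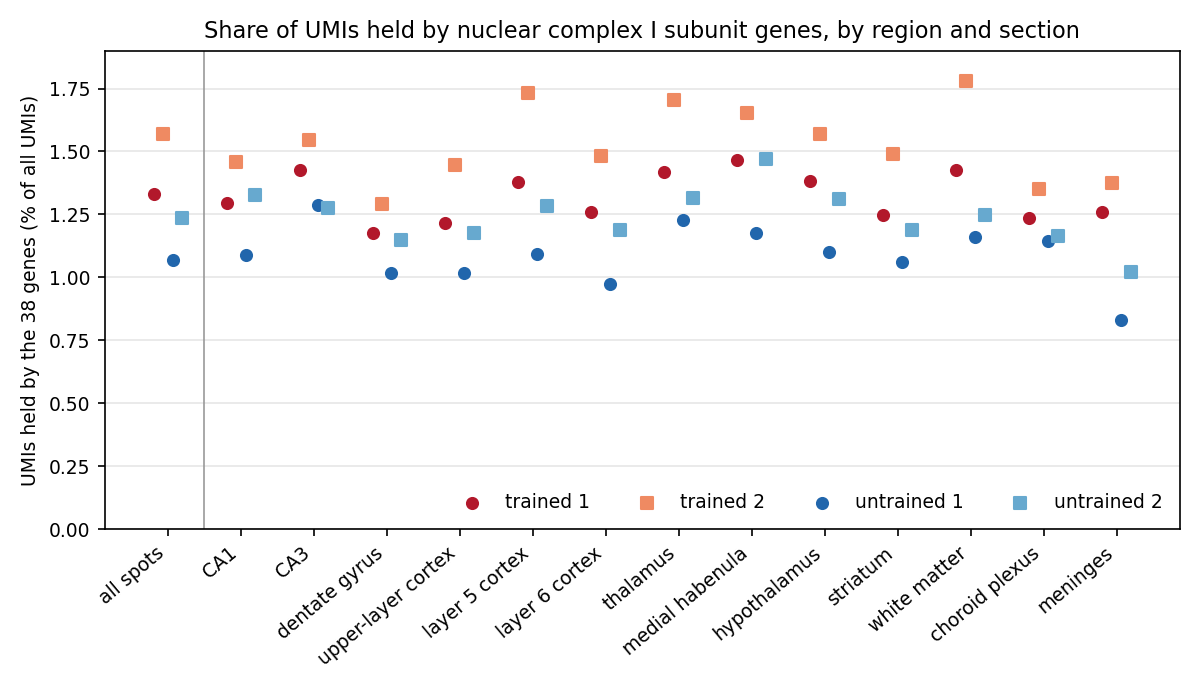
Share of all UMIs held by the 38 genes (%, vertical axis) in all spots and in each of 13 regions, one point per section. Red and orange points are the 2 trained sections and blue points the 2 untrained ones. Trained 2 is the highest point in every region, from 1.29% in the dentate gyrus to 1.78% in white matter.

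The test within regions called no member in any of the 13. Over all genes the share called was 0.0305% in CA3, 0.0881% in layer 5 cortex, 0.117% in thalamus, 0.111% in hypothalamus, 0.0907% in striatum and 0% in the other 8 regions. Of 479 pairs of a member and a region, 44 had an unadjusted p under 0.05, as did 5.75% of all pairs of a gene and a region, and DESeq2 called 0 members. The median log2 fold change of the members was above that of all genes in every region, from 0.14 in choroid plexus to 0.32 in white matter, while the medians over all genes lay between -0.01 and 0.02. Ndufa4l2 did not pass the filter on low counts in any region, nor Ndufa9 and Ndufs1 in the meninges.

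The smallest p over all regions belonged to Ndufa11 in white matter, with 482 and 508 CPM in trained and 284 and 273 CPM in untrained sections (log2 fold change 0.78 ± 0.18, SE, adjusted p 0.52 in edgeR). The trained sections lay above the untrained ones for this gene. Ndufa5 and Ndufs3 in white matter followed with 0.64 ± 0.18 and 0.72 ± 0.21, and Ndufa13 and Ndufa2 in striatum with 0.54 ± 0.18 and 0.57 ± 0.19, at adjusted p of 0.42 to 0.55. In the same comparison of white matter spots, the GABA neuron markers had a median log2 fold change of 0.71 (4 of 5 with an unadjusted p under 0.05), the astrocyte markers -0.27 (3 of 6) and the white matter markers -0.24 (1 of 6), and their part was not tested. Without trained 1, 9 pairs passed: Ndufa2 and Ndufb9 in the dentate gyrus, Ndufa4 in layer 5 cortex, layer 6 cortex, thalamus and white matter, Ndufa5 and Ndufa7 in thalamus, and Ndufc1 in white matter, with log2 fold changes of 0.56 to 0.88.

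Whether training moved a region by more than the other regions was tested as an interaction, and again no member passed in any region. The share of all genes called was 0.0218% for the medial habenula and for the hypothalamus, 0.0327% for striatum, 0.0109% for choroid plexus and 0% for the rest, and 12 of 481 pairs of members and regions had an unadjusted p under 0.05, against 4.75% of all pairs, while DESeq2 called 0 members. White matter had the most members above 0 (30 of 37, median 0.11, against -0.07 over all genes) and upper-layer cortex the fewest (7 of 37, median -0.10, against -0.05). Cell type markers moved in the same white matter comparison: 0 of 6 white matter markers were above 0 (median -0.75, all 6 with an unadjusted p under 0.05), and 4 of 5 GABA neuron markers were (median 0.41, 2 with such a p). Their part was not tested. The smallest p were those of Ndufa11 in white matter (0.56 ± 0.18, SE, adjusted p 0.37 in edgeR) and in CA1 (-0.56 ± 0.19), Ndufs3 in white matter (0.66 ± 0.23), Ndufb9 in the meninges (0.89 ± 0.35) and Ndufa1 in CA1 (-0.53 ± 0.21).

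Regions were then compared with each other. Each region was set against the average of the other regions, in a fit over all section and region sums with the section as a block, over 8092 genes. Of 481 pairs of a member and a region 57 passed, 35 higher and 22 lower, where 16.8% of the 105196 pairs of all genes did, so members were not called more often than genes in general. At least 1 region was called for 30 of the 37 members tested. Of these, 13 were higher in 1 region and lower in another. The direction of the fit was seen in 4 of 4 sections for 49 of the 57 calls, in 3 for 7 and in 2 for 1 (Ndufa11 in white matter). Leaving out each section in turn, 14 of the 57 calls passed every time: Ndufa10, Ndufv3, Ndufb8 and Ndufs5 in the thalamus, Ndufb8, Ndufb9, Ndufa3 and Ndufb7 in white matter, Ndufa12 and Ndufs6 in the dentate gyrus, Ndufa1 and Ndufb11 in the choroid plexus, Ndufa3 in upper-layer cortex and Ndufa13 in layer 6 cortex. Each other call named below was lost without at least 1 section. Of these 14, only Ndufa1 in the choroid plexus passed under every other alternative. Ndufa10 in the thalamus passed under all but thinning of all sums to the depth of the shallowest, where it was not tested. Thinning ended most of the rest, and Ndufs6 in the dentate gyrus and Ndufb7 in white matter were not tested there either. Without the block of section Ndufb8 and Ndufs5 in the thalamus and Ndufa13 in layer 6 cortex were lost, and with regions scored on single spots Ndufs6 in the dentate gyrus, Ndufa3 in upper-layer cortex, Ndufb7 in white matter and Ndufb11 in the choroid plexus were.

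**Figure D3:**
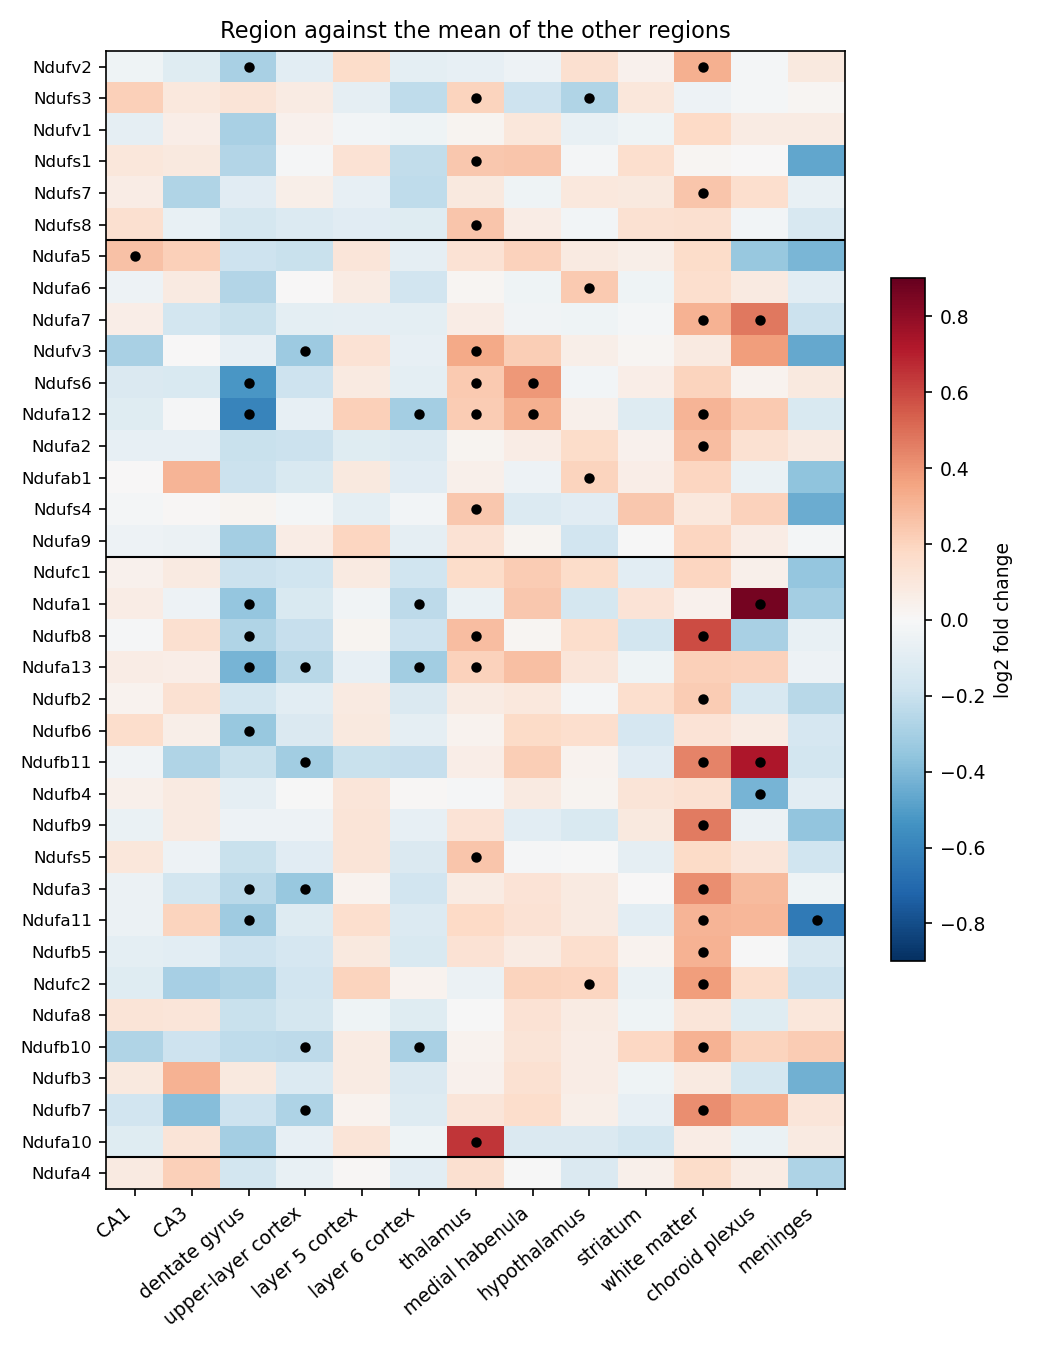
Log2 fold change of each region against the mean of the other regions for 36 of the genes tested (rows, ordered core, matrix arm, membrane arm and Ndufa4, with lines between) in 13 regions (columns). Black dots mark the 57 pairs that passed the test. White matter and thalamus hold most of the higher calls, 15 and 11, and the dentate gyrus holds 9 of the 22 lower calls.

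In the thalamus, 32 of 37 members were above 0 (median 0.11, against 0.00 over all genes) and 11 passed, all higher, where 17.6% of all genes were called higher. Ndufa10 stood out. It had 265, 337, 308 and 300 CPM in the thalamus of trained 1, trained 2, untrained 1 and untrained 2. In all spots of the same sections it had 208, 218, 194 and 210 CPM, so the thalamus was higher than the section as a whole in each. The log2 fold change against the other regions was 0.64 ± 0.08 (SE, adjusted p = 1.41e-10 in edgeR), and it was 0.58 to 0.72 with each section left out in turn. It was the highest of the 13 regions in trained 2 and untrained 2, while layer 5 cortex (271 CPM) in trained 1 and CA3 (309 CPM) in untrained 1 lay at its level.

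Ndufv3, an accessory subunit at the NADH-oxidising tip, had 428, 534, 346 and 359 CPM in the thalamus (log2 fold change 0.34 ± 0.08, SE, adjusted p = 0.000133 in edgeR). Ndufb8 had 557, 697, 414 and 493 CPM (0.28 ± 0.07, adjusted p = 0.000822). Ndufs5 had 540, 678, 442 and 500 CPM (0.25 ± 0.07, adjusted p = 0.00245). These 3 passed without each section in turn but were lost with thinned sums. Ndufb8 and Ndufs5 were also lost without the block of section. The core subunit Ndufs8 passed at 0.25 ± 0.08 but not without trained 1 (adjusted p = 0.0771), and the other calls were Ndufs6, Ndufa12, Ndufa13, Ndufs4 and the core subunits Ndufs1 and Ndufs3, each between 0.20 and 0.25. Of the 11 calls 7 to 10 held with 1 section left out. Other genes with transcripts under 1000 bases had a median of -0.08 in the thalamus, against 0.06 for the 20 members of that length. The part of length was not tested. In the thalamus 4 of 5 GABA neuron markers (median -1.57) and 4 of 7 microglia markers (-0.30) were called lower, and 3 of 6 white matter markers higher (0.33), and their part was not tested.

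**Figure D4:**
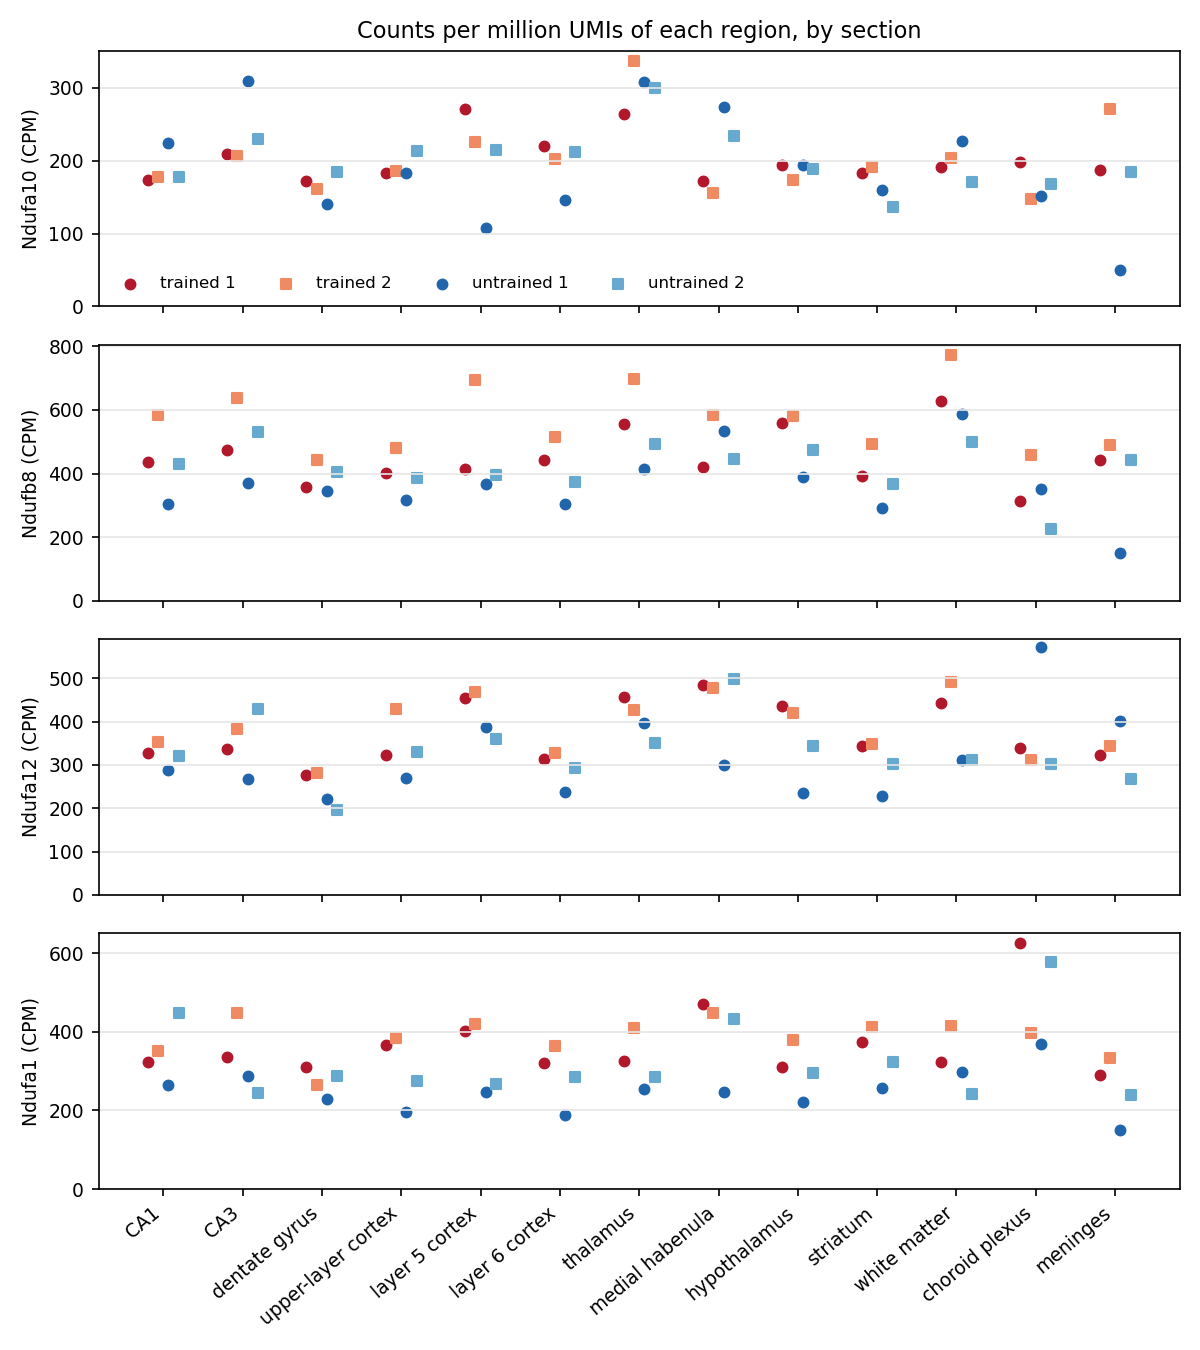
CPM of 4 genes (one panel each, vertical axis from 0) in 13 regions, one point per section. Ndufa10 is highest in the thalamus in trained 2 and untrained 2, Ndufb8 is highest in white matter in trained 1, trained 2 and untrained 1, Ndufa12 is lowest in the dentate gyrus in all 4 sections, and Ndufa1 is highest in the choroid plexus in trained 1, untrained 1 and untrained 2.

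The thalamus was not uniform. Over a spot and its neighbours the share of the 38 genes reached 2% or more at 158 spots of trained 2, of which 89 were thalamus spots and 55 white matter spots, and at 1, 2 and 1 spots of trained 1, untrained 1 and untrained 2. In trained 2 the other 14 were 12 spots with no region, 1 of CA3 and 1 of the medial habenula. Pvalb, Nefh, Vamp1 and Kcnc1 are known from fast-firing neurons and their axons. They were taken as markers of the high spots in the thalamus of trained 2, and Calb1 and Calb2 as genes low there. The values behind this choice are not given here. These genes were chosen after their values in trained 2 were seen, so that section is a description, and the other 3 sections were not used in the choice.

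In each section the thalamus spots were put in 4 groups of equal size by the summed level of Pvalb, Nefh, Vamp1 and Kcnc1 over a spot and its neighbours. From the lowest to the highest of these groups the share of the 38 genes was 1.30%, 1.30%, 1.52% and 1.63% in trained 1. It was 1.12%, 1.12%, 1.27% and 1.41% in untrained 1, and 1.18%, 1.27%, 1.38% and 1.49% in untrained 2. The 2 lower groups were close in trained 1 and untrained 1, the upper ones were higher in all 3 sections, and the highest group was 1.26 times the lowest in each of them, while in trained 2, from which the genes were chosen, it went from 1.39% to 2.07%. The median UMIs per spot were lower in the highest than in the lowest group in trained 1 (1570 against 2045), untrained 1 (922 against 1104) and untrained 2 (1535 against 1932), and higher in trained 2 (4398 against 3557.5). The share of the mitochondrial genome was 12.7% against 11.7%, 11.7% against 12.7%, 10.6% against 12.3% and 5.93% against 6.55% in the same order. The part of depth in the pattern was not tested. With 3 sections no test was made on this pattern.

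Member by member, 22 of the 37 genes tested in the thalamus had a higher CPM in the highest than in the lowest group in each of the 3 sections that were not used to choose the grouping genes, and 1 (Ndufa13) was lower in all 3. Of 9402 genes tested there, 13% were higher in all 3. The grouping genes were chosen for spots of high complex I share in another section, so these counts are given as a description, with no test. Among the 22 were the core subunits Ndufs3, Ndufs7 and Ndufv2, and Ndufa4. Ndufa12 had 495, 484, 492 and 450 CPM in the highest and 428, 341, 343 and 336 CPM in the lowest group of trained 1, trained 2, untrained 1 and untrained 2. Ndufa10, which had the largest fold change in the thalamus, was not among the 22: in untrained 1 it had 279 CPM in the highest against 343 CPM in the lowest group, and it was higher in the highest group in the other sections.

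**Figure D5:**
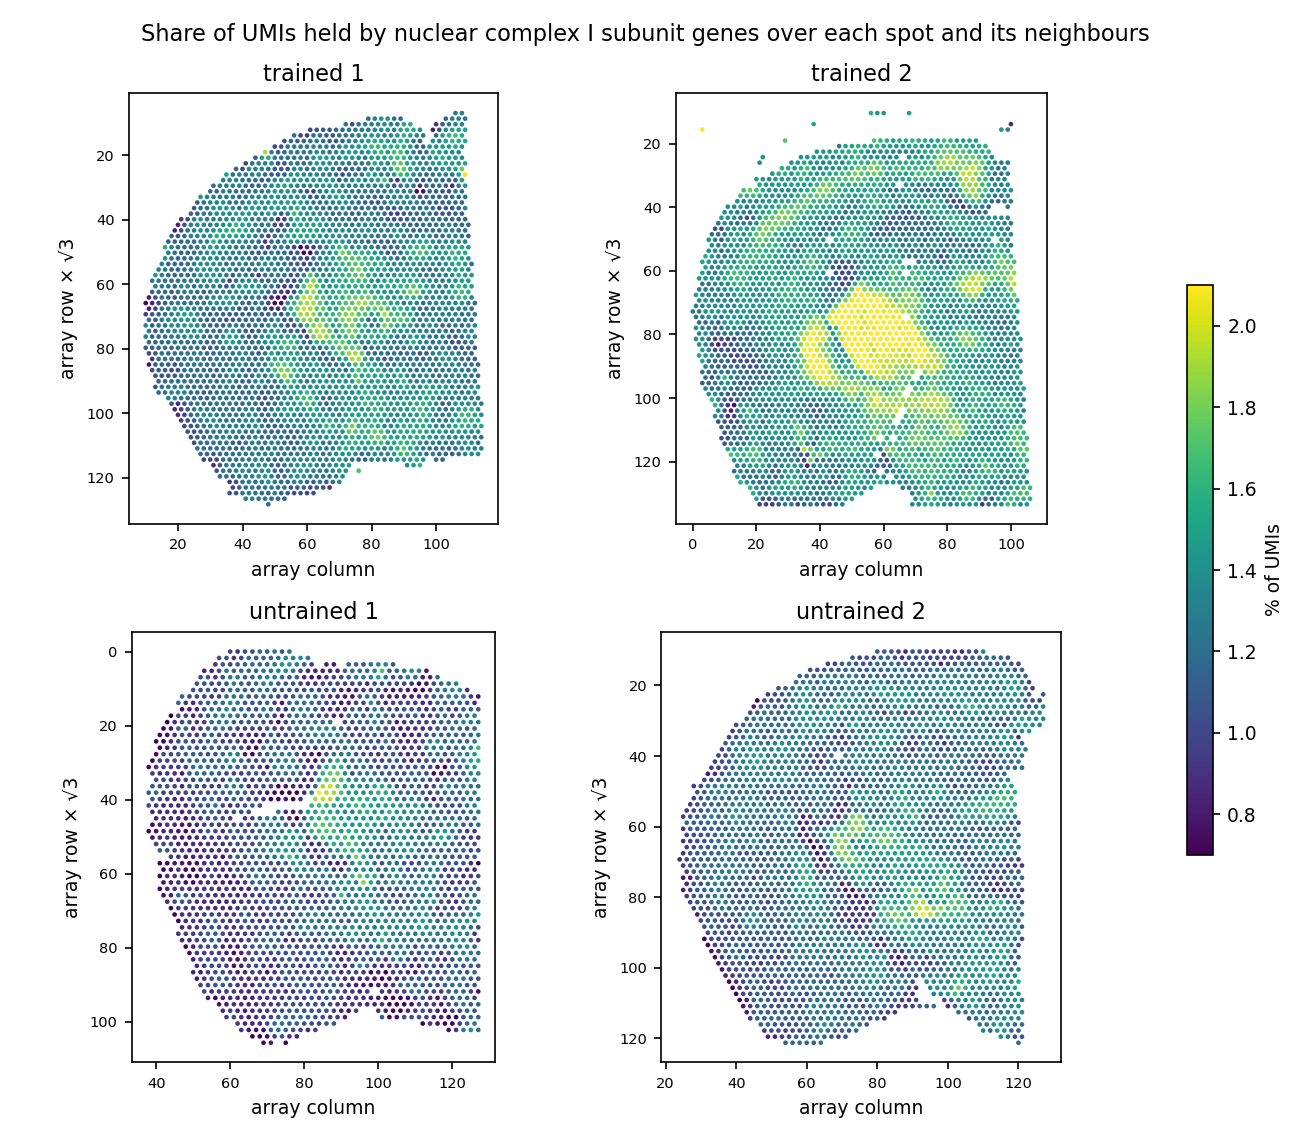
Share of UMIs held by the 38 genes (%, color) over each spot and its neighbours, drawn at the position of the spot on the capture array of each section. Values above 2.1% are drawn in the same yellow. In trained 2, 158 spots in all lie at or above 2%, and the other 3 sections hold 1 or 2 such spots each.

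White matter held the most higher calls. Of 37 members 36 were above 0 (median 0.19, against 0.02 over all genes) and 15 passed, all higher, where 15.8% of all genes were called higher. Ndufb8, a membrane arm subunit, had 627, 773, 588 and 498 CPM in white matter in trained 1, trained 2, untrained 1 and untrained 2, against 470, 592, 366 and 427 CPM over all spots, and was higher in 4 of 4 sections (log2 fold change 0.59 ± 0.08, SE, adjusted p = 1.49e-09 in edgeR). Ndufb9 had 544, 895, 517 and 630 CPM (0.47 ± 0.08). Ndufa3, a small membrane arm subunit, had 606, 740, 440 and 570 CPM (0.42 ± 0.07). Ndufb7 had 260, 262, 200 and 243 CPM (0.42 ± 0.10). These 4 passed with each section left out in turn. With thinned sums Ndufb8, Ndufb9 and Ndufa3 were lost and Ndufb7 was not tested. Ndufb7 was also lost with regions scored on single spots.

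Ndufb11, another X-linked membrane arm subunit, had 343, 497, 272 and 342 CPM in white matter (0.45 ± 0.09) but missed the threshold without trained 2 (adjusted p = 0.0504 in edgeR). The remaining calls were Ndufc2, Ndufb5, Ndufb10, Ndufb2, Ndufa11, Ndufa7, Ndufa12, Ndufa2 and the core subunits Ndufv2 and Ndufs7, between 0.23 and 0.37. Markers of other cell types were higher in these spots as well: 5 of 5 of GABA neurons (median log2 fold change 1.48), 6 of 6 of astrocytes (0.57) and 6 of 7 of microglia (0.99) were called higher, and 4 of 6 of neurons lower (-0.39). Their part in the result was not tested. Of the other lists, 8 genes of complex IV, 6 of ATP synthase and 3 of complex III were called higher in white matter. Of the 15 calls 14 held without either untrained section, 8 without trained 1 and 6 without trained 2. Genes with short transcripts were also higher in white matter. Other genes with transcripts under 1000 bases had a median of 0.21 and 79.1% were above 0. The 20 members of that length had a close median of 0.23, and the part of length was not tested. White matter spots were the shallowest of the 13 regions in trained 1, untrained 1 and untrained 2, with medians of 923, 499 and 809.5 UMIs per spot, and had 2154 in trained 2.

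The dentate gyrus was the reverse. The 38 genes held 1.18%, 1.29%, 1.02% and 1.15% of UMIs there in trained 1, trained 2, untrained 1 and untrained 2, the lowest share of all regions in both trained sections and among the lowest 4 in the untrained ones. Of 37 members 34 were below 0 (median -0.20, against 0.00 over all genes), and 9 passed, all lower, where 6.5% of all genes were called lower. Ndufa12, an accessory subunit of the matrix arm and a paralog of the assembly factor Ndufaf2, had 276, 282, 222 and 196 CPM in the dentate gyrus against 383, 397, 283 and 324 CPM over all spots (log2 fold change -0.60 ± 0.11, SE, adjusted p = 2.35e-05 in edgeR). Ndufs6, a zinc-binding subunit of the same arm, had 248.9, 199, 165 and 185 CPM against 293, 332, 226 and 254 CPM (-0.52 ± 0.11, adjusted p = 0.000171). Both were lower in 4 of 4 sections and passed with each section left out. Ndufa12 was lost with thinned sums, under which Ndufs6 was not tested, and Ndufs6 was lost with regions scored on single spots.

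The other calls in the dentate gyrus were less firm. Ndufa13, also known as the death-associated factor GRIM-19, had 364, 491, 263 and 452 CPM (-0.42 ± 0.10) and did not pass without trained 1 (adjusted p = 0.108 in edgeR). Ndufa1 (-0.35 ± 0.11) and Ndufb6 (-0.34 ± 0.11) had an adjusted p of up to 0.156 and 0.251 with 1 section left out, and Ndufa11, Ndufa3, Ndufb8 and the core subunit Ndufv2 were also called. Of the 9 calls 2 held without trained 1, 5 without trained 2, 8 without untrained 1 and 4 without untrained 2. Of the cell type markers, 6 of 6 of white matter (median log2 fold change -1.27) and 4 of 5 of GABA neurons (-0.85) were called lower in the dentate gyrus, and their part in the result was not tested. Other nuclear genes of the respiratory chain gave these counts: 5 of 14 complex IV genes, 3 of 4 of complex II, 3 of 17 of ATP synthase and 2 of 9 of complex III were called lower and none higher. The 7 complex I genes of the mitochondrial genome were all above 0 there (median 0.25), with none called.

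The cortex was low in its upper layers and in layer 6. In upper-layer cortex 31 of 37 members were below 0 (median -0.12) and 6 passed, all lower, where 6.66% of all genes were called lower. Ndufa3 had 392, 481, 308 and 397 CPM there against 483, 593, 389 and 473 CPM over all spots (log2 fold change -0.34 ± 0.07, SE, adjusted p = 0.000278 in edgeR) and passed with each section left out. It was lost with thinned sums and with regions scored on single spots. Ndufv3 (-0.33 ± 0.09) was lost without trained 1, Ndufb11 (-0.31 ± 0.09) without trained 1 or untrained 2, Ndufa13 (-0.25 ± 0.09) without any section but untrained 1, and Ndufb7 (-0.28 ± 0.10) without any of the 4, with adjusted p of up to 0.103, 0.106, 0.215 and 0.344. The remaining call was Ndufb10. Of the white matter markers 6 of 6 (median -1.11) and of the astrocyte markers 3 of 6 (-0.51) were called lower in this region, and their part was not tested. Other genes with transcripts under 1000 bases had a median of -0.14 in this region, against -0.13 for the 20 members of that length.

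In layer 6 cortex 35 of 37 members were below 0 (median -0.12) and 4 passed, all lower, where 5.91% of all genes were called lower. Ndufa13 had 468, 535, 342 and 391 CPM (log2 fold change -0.31 ± 0.08, SE, adjusted p = 0.00373 in edgeR) and passed with each section left out. Ndufa12 (-0.31 ± 0.08) and Ndufb10 (-0.29 ± 0.08) were lost without trained 1, at adjusted p of 0.0555 and 0.113, and Ndufa1 (-0.24 ± 0.09) without any of the sections, at up to 0.194. With sums thinned to the depth of the shallowest, the values of Ndufa13 and Ndufa1 turned to 0.000675 and 0.41, and Ndufa13 was also lost without the block of section. Of the markers, 5 of 6 of astrocytes (median log2 fold change -0.80), 4 of 7 of microglia, 3 of 5 of vessels, 4 of 4 of blood and 4 of 6 of white matter were called lower in layer 6 cortex and 4 of 6 of neurons higher, and their part was not tested. In layer 5 cortex, between these layers, no member passed, where 12% of all genes were called in either direction, and 3 members had an unadjusted p under 0.05, as did 24.4% of all genes. The smallest p there were those of Ndufa12 (0.21 ± 0.09), Ndufc2 (0.20 ± 0.09), Ndufb11 (-0.20 ± 0.10), Ndufv2 (0.16 ± 0.09) and Ndufa11 (0.15 ± 0.09).

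The choroid plexus, the epithelium that secretes cerebrospinal fluid, differed by single genes. There 3 members were higher and 1 lower, where 9.61% and 5.98% of all genes were called. Ndufa1 had 627, 398, 370 and 577 CPM in trained 1, trained 2, untrained 1 and untrained 2, against 351, 391, 240 and 299 CPM over all spots. The log2 fold change was 0.86 ± 0.13 (SE, adjusted p = 1.75e-07 in edgeR), the largest of any member in any region, and it was higher in 4 of 4 sections, though by little in trained 2. Ndufb11 had 520, 441, 269 and 393 CPM (0.73 ± 0.13, adjusted p = 7.38e-06). Both passed with each section left out, and they are the only 2 members on the X chromosome. Ndufb11 was lost with thinned sums and with regions scored on single spots. Ndufa7 (0.47 ± 0.12) was lost without trained 1 (adjusted p = 0.0758) and Ndufb4 (-0.42 ± 0.13) without trained 1 or untrained 2 (up to 0.202). The region had 36 to 56 spots a section. White matter markers (6 of 6, median 1.53) and blood markers (3 of 4, 1.24) were called higher in it and neuron markers lower (5 of 6, -0.77), and their part was not tested.

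The remaining regions had few calls. In the medial habenula Ndufs6 (0.39 ± 0.11) and Ndufa12 (0.32 ± 0.11) were higher, where 5.54% of genes were. The first was lost without untrained 2 (adjusted p = 0.158 in edgeR) and the second without any section but untrained 1 (up to 0.265). These were also the 2 genes with the largest fall in the dentate gyrus. In the hypothalamus Ndufa6 (0.23 ± 0.07), Ndufab1 (0.20 ± 0.07) and Ndufc2 (0.20 ± 0.07) were higher and the core subunit Ndufs3 (-0.27 ± 0.09) lower, where 14.6% and 13.2% of genes were, and none of the 4 passed without trained 1. In CA1 Ndufa5 was higher (0.26 ± 0.09, where 8.39% of genes were), with 447, 555, 374 and 453 CPM. In the meninges Ndufa11 was lower (-0.64 ± 0.18, where 0.161% of genes were), with 272, 301, 151 and 157 CPM from 21 to 53 spots a section. Neither of these last 2 passed without any of the sections, at adjusted p of up to 0.248 and 0.388.

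No member passed in CA3 or in the striatum, where 10.9% and 17.6% of all genes were called in either direction, and 6 and 3 members had an unadjusted p under 0.05, as did 22.2% and 28.1% of all genes. In CA3 the smallest p were those of Ndufab1 (0.30 ± 0.12), Ndufb3 (0.31 ± 0.12), Ndufc2 (-0.30 ± 0.12), Ndufa4 (0.21 ± 0.09) and Ndufb7 (-0.38 ± 0.16). DESeq2 called Ndufa4 higher in CA3 (adjusted p = 0.0446), and none of the genes named for striatum or for layer 5 cortex. With 1 section left out, Ndufb7 passed in CA3 without untrained 1 (-0.48, adjusted p = 0.0484 in edgeR). In the striatum they included those of Ndufs4 (0.24 ± 0.10), Ndufb10 (0.18 ± 0.08), Ndufb8 (-0.16 ± 0.08) and Ndufb2 (0.15 ± 0.08). Ndufs4 passed there without untrained 1 (0.32, adjusted p = 0.0157 in edgeR), and Ndufb10 without untrained 2 (0.28, adjusted p = 0.0342), while without trained 2 its value was 0.08. With regions scored on single spots Ndufs4, Ndufb10 and Ndufb8 passed in the striatum, at adjusted p of 0.0140 to 0.0379. All 7 complex I genes of the mitochondrial genome were called higher in the striatum, while no nuclear member was. The share of the nuclear genes in CA3 had rank 2 among the 13 regions in trained 1, 1 in untrained 1 and 6 in the other sections, so its place was not stable between mice.

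Within a section, the share of the nuclear complex I genes in a region ran against that of the mitochondrial genome. Over the 13 regions Pearson's r was -0.19 in trained 1, -0.51 in trained 2, -0.68 in untrained 1 and -0.46 in untrained 2. The regions of a section share a library, and the 2 shares have the same total, so this is a description with no test. The range between regions was 1.25-fold in trained 1, 1.38-fold in trained 2, 1.55-fold in untrained 1 and 1.44-fold in untrained 2, and the lowest region was the dentate gyrus in the trained and the meninges in the untrained sections. The mouse gene of subunit B1, Ndufb1-ps, which the symbol rule leaves out, had 391 to 761 CPM in the regions of the trained and 301 to 697 CPM in those of the untrained sections.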

How the data were processed

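The authors deposited filtered matrices of UMI counts per spot and gene with spot positions. Their methods name Space Ranger and the mm10 reference, the file headers give Space Ranger 1.2.2, and the labels list Cell Ranger 8, STAR and GRCm39, so the build is not settled by these sources. Genes are given by symbol, with positions from GENCODE vM21 on GRCm38. The tables hold 1 library per section, and no doublet caller was run on spots.

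Counts over tissue were summed per section and per region and tested with edgeR 4.0.16 (quasi-likelihood, TMM, filterByExpr, R 4.3.3), adjusted by Benjamini-Hochberg at 0.05 over all genes tested. Training was fitted as trained against untrained, over all spots and within each region. Each region was set against the mean of the others, blocking on section, and the training effect of a region was an interaction with region. Regions were rebuilt from 14 marker lists, and the scoring rule was set with the data in view: markers were scaled to 10000 UMIs a spot, averaged over a spot and its neighbours, and a spot took the leading list at a score of 0.5 or more, in patches of at least 8 spots. A region needed 20 spots in every section. Genes named are the core subunits, Ndufa4, Ndufa4l2 and Ndufab1, those failing a filter, and in each comparison the 5 called with the largest change or, without calls, the 5 smallest p. Others listed as calls complete a count. The values of 1 member are not reported here, and it stays in every sum, count and fit. The members and lists were chosen with earlier results of these data known. Same-numbered sections did not deviate together (correlation 0.0190 over 13810 genes), so they were not paired. The tests were tried on simulated counts with changes of known size. For training over all spots 16 of 67 changes of 1.5-fold were recovered, 53 of 65 of 2-fold and 61 of 66 of 4-fold. Within CA1 these were 3 of 62, 18 of 59 and 54 of 56. For the thalamus against the other regions they were 43 of 59, 61 of 62 and 64 of 64, and for its training effect 13 of 64, 25 of 59 and 55 of 65. Alternatives were DESeq2 1.42.0, no filter, thinned sums, other totals, single-spot regions, other blocks and leaving out each section.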

Additional observations from a re-analysis of the deposited data

How the results depend on the processing

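The number of members called between trained and untrained sections was 0 under every alternative run except leaving out sections, where it ranged from 0 to 9, both over all spots and summed over regions. With the replicate block it was 0 in both, and the median log2 fold change of the members was 0.25. That median was 0.13 to 0.33 with 1 section left out. The difference in share ranged from 0.177 to 0.418 percentage points. The training effect of a region gave 0 calls throughout. For regions against each other the 57 calls became 69 with DESeq2 (48 shared), 52 with no filter (37 shared), 58 with other totals (54 shared), 31 with single-spot regions (21 shared), 22 without the block of section (22 shared), and 22 to 56 with 1 section left out. Thinning every sum to 19903 UMIs, the depth of the shallowest, left 2 calls (1 shared). Some of the 57 calls were not tested there, and the cause of the loss was not tested. Of the 57 calls 51 had the same sign under every alternative.

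Directions that turned belonged to single genes. With single-spot regions these were Ndufb9 in meninges (-0.0315) and Ndufa1 in CA1 (0.0159) for the training effect, and Ndufab1 in CA3 (-0.0172), Ndufa12 in layer 5 cortex (-0.0267) and Ndufc2 in layer 5 cortex (-0.0476) between regions. With thinned sums they were Ndufa13 in the dentate gyrus (0.0422), Ndufc2 in layer 5 cortex (-0.0650), Ndufa13 in layer 6 cortex (0.000675), Ndufa1 in layer 6 cortex (0.41), Ndufb2 in striatum (-0.27), Ndufb10 in upper-layer cortex (0.0420), Ndufa13 in thalamus (-0.0706) and Ndufa2 in white matter (-0.0422). The cause was not tested. The depth of untrained 1 and the 2 mice a group limit what can be seen.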
